A study of Rattus norvegicus with 4 samples.

Results

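The genes described here encode the mitochondrial respiratory chain and the ATP synthase, as measured in whole rat testis before and after vitamin A was given back to deficient animals. Probe sets with a single gene symbol beginning with Nduf, Sdh, Uqcr, Atp5 or Cox followed by 4, 5, 6, 7 or 8 were taken, together with Cycs, and 101 probe sets met this rule. They named 55 of the 4736 genes on the array that could be named by a single symbol. Of these, 27 belonged by symbol to complex I, 2 to complex II, 3 to complex III, 13 to complex IV and 10 to complex V, and no probe set with a single symbol named Cycs, the gene of cytochrome c.

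The animals were rats put on a diet lacking vitamin A at 20 days of age and kept on it for 9 weeks. The groups were vitamin A-deficient testis (VAD) and deficient testis taken 4, 8 and 24 h after retinol, the alcohol form of the vitamin, with 1 array each. All 4 groups therefore shared the deficiency, and no testis of a vitamin A-sufficient rat was analysed here. RNA was from total testis, 10 µg of it was labelled, and the sources used here do not say how many animals stand behind an array.

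The respiratory chain lies in the inner mitochondrial membrane. Complexes I and II pass electrons from NADH and succinate to ubiquinone, complex III passes them on to cytochrome c and complex IV to oxygen. Complexes I, III and IV pump protons, and complex V, the ATP synthase, uses the proton gradient to make ATP. Most subunits are encoded in the nucleus and a few in mitochondrial DNA, and only nuclear genes were among those measured. In the testis, Sertoli cells and spermatogonia rely strongly on glycolysis, and meiotic and later germ cells draw more on respiration.

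Each deposited value was a ratio per probe set, and the sources used here do not state its denominator. Ratios hold no signal level, so no level is compared between genes. A gene's ratio is the geometric mean over its probe sets, and a change is the log2 of a gene's ratio on a retinol array over that on the VAD array unless another pair is named. With 1 array in each group there is no spread between samples, no test and no p-value. The only error that can be given is the SD between probe sets of a single gene, pooled over genes. For the changes at 4, 8 and 24 h it was 0.42, 0.50 and 0.54 log2 units over the 1565 genes with at least 2 probe sets, and 0.32, 0.36 and 0.38 over the 28 members with at least 2. It leaves out the spread between animals. The comparisons at 4, 8 and 24 h share the VAD array, so they are not independent of each other.

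The 9 hybridisation spike-in probe sets of bacterial and phage sequence, which are added in fixed amounts, were lower on every retinol array than on the VAD array, with median changes of -0.55, -0.58 and -0.71 at 4, 8 and 24 h. The median of all 4736 genes was -0.09, -0.12 and -0.12 in the ratios as deposited, against 0.45, 0.38 and 0.50 when the arrays were scaled on the spike-ins. The sign of a change against 0 therefore depends on the scaling, and the position of a gene below or above the median of all genes does not. In the control genes for actin, GAPDH and hexokinase, the probe sets for the 5′ end moved up against those for the 3′ end by 0.71, 1.09 and 1.01 on average. The part of these shifts in the results below was not tested.

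As deposited, the respiratory chain and ATP synthase genes were lower on the retinol arrays, and they lay below the median of all genes under either scaling. Their median change was -0.34, -0.46 and -0.56 at 4, 8 and 24 h. This placed it 0.25, 0.34 and 0.44 log2 units below the median of all genes; scaled on the spike-ins, the members' median had the other sign, at 0.21, 0.04 and 0.06. The median ratio of the 55 genes was 1.04, 0.855, 0.786 and 0.713 on the VAD, 4, 8 and 24 h arrays, where that of all genes was 0.995, 0.931, 0.919 and 0.917. Ratios of single members ran between 0.842 and 1.309 on the VAD array, 0.605 and 1.325 at 4 h, 0.523 and 1.665 at 8 h, and 0.462 and 1.591 at 24 h. A ratio above 1 was found for 37 of 55 members on the VAD array, 6 at 4 h, 5 at 8 h and 4 at 24 h. Of all 4736 genes, 2269, 1784, 1813 and 1844 had a ratio above 1 on the same arrays.

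The deposited ratio of 50 of 55 members was lower than on the VAD array at 4 h, where 61.1% of all genes were lower. The count was again 50 of 55 at 8 h and at 24 h, where 61.5% and 59.9% of all genes were lower. Scaled on the spike-ins, 9, 24 and 19 of the 55 members were below 0 at 4, 8 and 24 h, where 8.02%, 17.4% and 11.9% of all genes were. The changes were small in size. At least 1.5-fold lower were 4 members at 4 h, 16 at 8 h and 22 at 24 h, where 6.63%, 12.3% and 14.1% of all genes passed. At least 2-fold lower were 0 members at 4 h (1.25% of all genes), 0 at 8 h (1.88%) and 2 at 24 h (2.64%). At least 2-fold higher were 0 members at 4, 8 and 24 h, where 1.41%, 2.83% and 3.27% of all genes passed. The SD of the change over the 55 genes was 0.26, 0.34 and 0.38 at these times.

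As deposited, the step of the members' median from the VAD array to 4 h, -0.34, was larger in size than either step between retinol arrays. Set against a ratio of 1 the value at 4 h was -0.23, of -0.49 at 24 h, and scaled on the spike-ins it had the other sign. Between successive retinol arrays the members' median change was -0.12 at 8 h against 4 h, beside -0.03 for all genes. It was -0.07 at 24 h against 8 h, beside 0.00 for all genes. At 8 h, 43 of 55 members were lower than at 4 h, against 55.7% of all genes. At 24 h, 37 of 55 were lower than at 8 h, against 49.8% of all genes. No member was 2-fold lower or higher in either step. In the first step 0.929% of all genes were 2-fold lower and 0.718% higher, and in the second 0.655% were lower and 0.507% higher.

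Part of the difference lay on the VAD array itself, where the members' median ratio was above that of all genes. Set against a ratio of 1 in place of the VAD array, the members' median was -0.23, -0.35 and -0.49 at 4, 8 and 24 h, and that of all genes -0.10, -0.12 and -0.13. The distance below all genes was then 0.12, 0.23 and 0.36 log2 units, less than against the VAD array. Among the 37 members whose VAD ratio was within 10% of 1 the median change was -0.27, -0.36 and -0.45, beside -0.10, -0.13 and -0.14 for the 3046 genes that met the same limit.

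**Figure D1:**
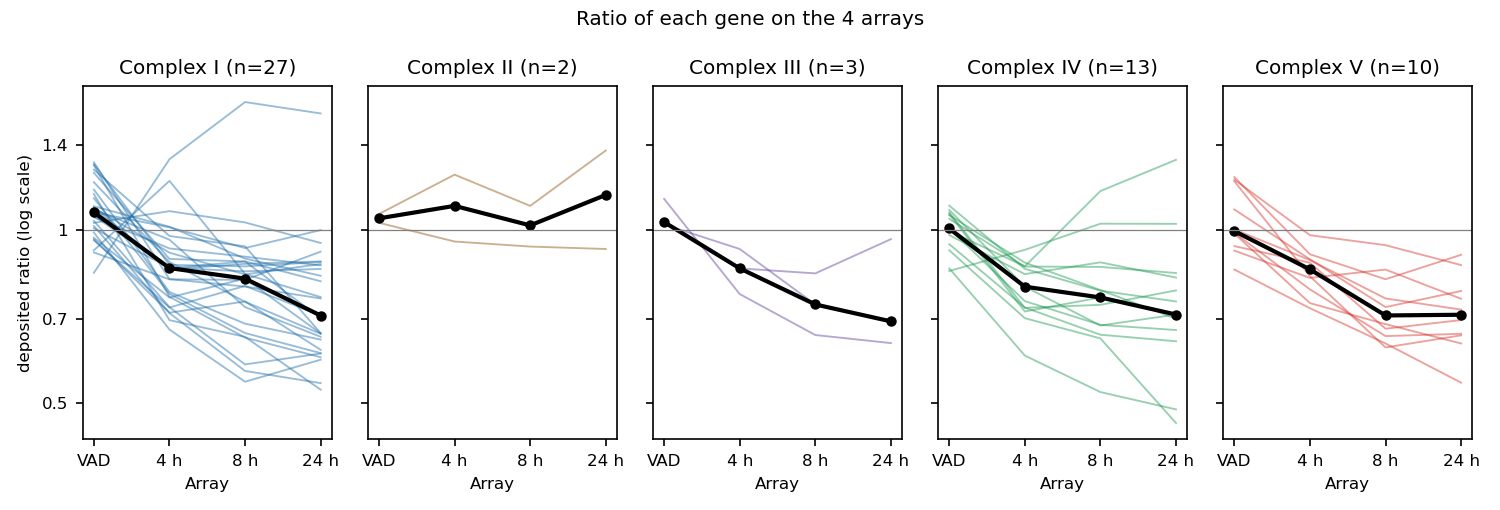
The deposited ratio (log scale) of each gene on the VAD array and 4, 8 and 24 h after retinol, in 1 panel per complex; each thin line is a gene and the black line the median of the complex. The medians of complexes I, III, IV and V lay between 0.994 and 1.07 on the VAD array and between 0.694 and 0.713 at 24 h in the ratios as deposited; their changes take the other sign when arrays are scaled on the spike-ins.

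Complexes I, III, IV and V had similar medians and complex II stood apart, on only 2 genes. As deposited, the median change at 24 h was -0.59 in complex I, 0.11 in complex II, -0.56 in complex III, -0.56 in complex IV and -0.48 in complex V. Scaled on the spike-ins, the 5 values were 0.03, 0.73, 0.06, 0.06 and 0.14. The times at which the complexes reached these values were not the same. At 4 and 8 h the medians were -0.38 and -0.38 in complex I, -0.27 and -0.46 in complex III, -0.36 and -0.49 in complex IV, and -0.30 and -0.50 in complex V. In complex V the median was -0.21 at 8 h against 4 h and -0.03 at 24 h against 8 h, where complex I had -0.07 and -0.10. No difference between complexes was tested. Averaged over all 4 arrays, the log2 ratio had a median of -0.24 over the members and -0.10 over all genes. By complex this average was -0.21 in complex I, 0.10 in complex II, -0.26 in complex III, -0.28 in complex IV and -0.29 in complex V.

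**Figure D2:**
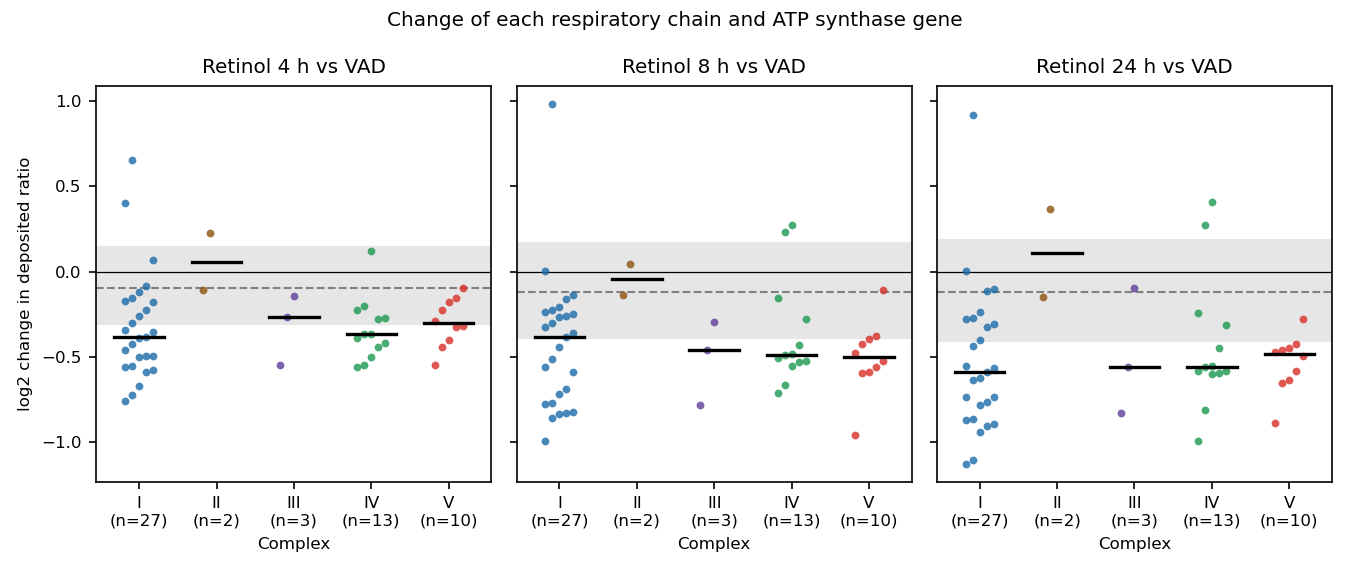
The log2 change of each of the 55 genes against VAD at 4, 8 and 24 h, by complex; points are genes, black bars complex medians, the dashed line the median of all 4736 genes and the grey band their middle 50 percent. At 24 h as deposited, 25 of 27 genes of complex I and 10 of 10 of complex V were below 0, where 59.9% of all genes were. Ndufs1 stood highest in each panel. Against 0, not against the dashed line, the direction of the medians depends on the scaling.

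Promoter sequences of the rat were available in the RefSeq set of assembly GRCr8 for 47 of the 55 genes, as windows of 300 bases, 250 before and 50 after the first listed start of a gene. They were searched on both strands for the letters of 7 motifs of factors known to act on respiratory genes or on promoters at large. The motifs were settled after other lengths of them had been tried, so the shares are descriptions. The YY1 motif AAGATGGC was present in 11 of the 47 windows, or 23.4%, against 3.98% of the 3871 windows of genes on the array and 3.44% of all 27457. In 10 of the 11 genes it read in the direction of the gene, and in 8 it began after the start. Its letters contain ATG, and whether a match lies at the start codon of a gene was not examined. The following 30-base stretches show it in capitals in genes of complexes I and V, 5′ to 3′ on the strand of the gene.
Ndufs6, chr1:31797412-31797441, plus strand: gggtcgtcggcAAGATGGCggcggcgctga
Ndufa6, chr7:115750284-115750313, minus strand: gcttccttagcAAGATGGCggccgcggcca
Ndufb8, chr1:253362897-253362926, minus strand: cggagaaggtgAAGATGGCggcgtcccggg
Ndufs7, chr7:10110476-10110505, minus strand: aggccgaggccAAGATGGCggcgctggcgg
Atp5po, chr11:44657464-44657493, minus strand: ctgcccgggaaAAGATGGCcgcaccagcaa

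The NRF1 motif GCGCANGCG was in 9 windows of members, or 19.1%, against 9.43% of windows of array genes, and the ETS motif CCGGAAG, which GABP binds, in 10, or 21.3%, against 12.3%. The ERR motif TGACCTT was in 5 (10.6% against 3.05%) and the CREB motif TGACGTCA in 2 (4.26% against 2.43%). The general motifs GGGCGG of SP1 and CCAAT of NF-Y were in 21 and 17 (44.7% against 56.2% and 36.2% against 38.2%). The NRF1 letters are shown in a gene of complex I and a gene of complex V that were both lower as deposited, to set beside the YY1 stretches.
Ndufa5, chr4:53971248-53971277, minus strand: cgtatgagctGCGCAGGCGcaaatctctcc
Atp5po, chr11:44657523-44657552, minus strand: acgccgacgcGCGCATGCGctctggcatca

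The median change at 24 h was -0.49 in the 11 members with the YY1 letters and -0.55 in the 36 without. It was -0.58 in the 9 members with the NRF1 letters and -0.52 in the 38 without, and -0.30 in the 10 with the ETS letters and -0.56 in the 37 without. The largest gap was that of the ERR letters, with -0.89 in 5 members and -0.52 in 42. It was -0.71 in the 2 members with the CREB letters, Cox8a and Ndufb2, and -0.55 in the 45 without. With and without the SP1 letters the medians were -0.62 in 21 and -0.46 in 26 members, and with and without those of NF-Y -0.43 in 17 and -0.56 in 30. None of these gaps was tested. A match is a description of the letters and not a bound site. The 100 bases before the start are shown for the highest member at 24 h and for the lowest one with a window, followed by the heart isoforms of 2 complex IV subunits, which had opposite signs. The YY1, NRF1 and ETS letters are absent from these 4 stretches, but the searched window of Ndufs1 holds the ETS letters farther out, at -199 from the start.
Ndufs1, chr9:72073606-72073705, minus strand: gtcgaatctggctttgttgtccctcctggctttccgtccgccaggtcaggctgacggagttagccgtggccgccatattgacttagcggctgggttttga
Ndufb2, chr4:69334207-69334306, plus strand: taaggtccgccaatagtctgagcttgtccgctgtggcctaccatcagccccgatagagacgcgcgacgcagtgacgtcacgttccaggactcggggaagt
Cox6a2, chr1:192219717-192219816, minus strand: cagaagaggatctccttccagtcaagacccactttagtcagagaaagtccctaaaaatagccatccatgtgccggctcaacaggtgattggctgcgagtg
Cox8b, chr1:205408274-205408373, minus strand: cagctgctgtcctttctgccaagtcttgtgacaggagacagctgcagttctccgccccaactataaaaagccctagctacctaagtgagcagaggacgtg

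Complex I is the largest complex and takes electrons from NADH. At 24 h its accessory subunits of the membrane arm had the lowest median of the groups by role; at 8 h the catalytic genes of complex V had the same median of -0.56. The grouping by role was made after the values had been seen and is a description. The 13 membrane-arm accessory genes had a median change of -0.46, -0.56 and -0.73 at 4, 8 and 24 h. As deposited all 13 were below 0 at 24 h, between -1.13 and -0.27, where 59.9% of all genes were, and 11 of the 13 were at least 1.5-fold lower, where 14.1% of all genes were. Scaled on the spike-ins they ran from -0.51 to 0.35, with 10 of 13 below 0 (11.9% of all genes) and 0 at least 1.5-fold lower. The 6 accessory genes of the matrix arm had medians of -0.44, -0.55 and -0.65. The 4 core genes, whose proteins hold the iron-sulphur centres that carry the electrons, had medians of -0.13, -0.22 and -0.19. Apart from a probe set of Ndufb5, every membrane-arm probe set had the prefix rc_ in its identifier. Those of the core genes Ndufs1 and Ndufv2 did not. Outside the members, the median at 24 h was -0.27 for rc_ probe sets and -0.02 for the rest. The part of the kind of probe set in the differences between these groups was not tested.

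Ndufb9 and Ndufb2, both accessory subunits of the membrane arm, were the members more than 2-fold lower as deposited. Ndufb9 had ratios of 1.15 on the VAD array, 0.697 at 4 h, 0.652 at 8 h and 0.528 at 24 h. Its change was -0.73, -0.82 and -1.13, or 2.18-fold lower at 24 h. Ndufb2 had ratios of 1.29 on the VAD array, 0.765 at 4 h, 0.650 at 8 h and 0.601 at 24 h. In both genes the value was high on the VAD array and lower at each later time. Ndufb2 had changes of -0.76, -0.99 and -1.11. Each of these genes was read by 1 probe set, of the kind with the prefix rc_. The 2-fold call of both rested on the scaling and on the VAD array. At 24 h Ndufb9 and Ndufb2 were at -0.51 and -0.48 scaled on the spike-ins and at -0.92 and -0.73 against a ratio of 1. With a pseudocount of 0.1 both were just under 2-fold, and centred on the median of all genes Ndufb2 was at -0.99.

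Ndufc1, Ndufa5, Ndufs6, Ndufa3 and Ndufa6 followed, with changes of -0.94, -0.91, -0.89, -0.87 and -0.86 at 24 h. Ndufa5 had ratios of 1.02 on the VAD array and 0.717, 0.569 and 0.542 at 4, 8 and 24 h. Its VAD ratio was thus close to 1, unlike those of Ndufb9 and Ndufb2. The NRF1 letters of Ndufa5 and the YY1 letters of Ndufa6 and Ndufs6 are among those printed above. Ndufc1 had ratios of 1.27 on the VAD array and 0.975, 0.936 and 0.662 at 4, 8 and 24 h, so that its largest step, -0.50, came between 8 and 24 h. Ndufb10, Ndufc2 and Ndufb5, 3 more membrane-arm genes, were at -0.78, -0.76 and -0.73 at 24 h. The smallest 24 h values of the membrane arm were those of Ndufb6 (-0.32) and Ndufb11 (-0.27).

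As deposited, Ndufs1 had the opposite sign to the members' median. Scaled on the spike-ins, that median was above 0 as well. It encodes the largest iron-sulphur subunit of the complex, part of the module that takes electrons from NADH. Its ratio was 0.842 on the VAD array, 1.325 at 4 h, 1.665 at 8 h and 1.591 at 24 h. The VAD value was the lowest of all 55 members and the values at 4, 8 and 24 h the highest. The changes were 0.65, 0.98 and 0.92, or 1.57-fold, 1.98-fold and 1.89-fold higher. A distance from the members' median was also expressed in units of the SD between probe sets of a gene over all genes, divided by the square root of the number of probe sets. Ndufs1 lay 1.48 log2 units above the members' median at 24 h, or 2.74 such units. It was read by 1 probe set only, so no second reading of it exists on the array. That probe set lacks the prefix rc_, and probe sets without it had higher medians than those with it, as given below.

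The other core genes were below 0 at each time as deposited. Ndufs7, beside the quinone site, had ratios of 1.30 on the VAD array and 0.869, 0.864 and 0.879 at 4, 8 and 24 h. It was at its lower value by 4 h and showed the same value after it, with changes of -0.58, -0.59 and -0.56. Ndufv2, next to the NADH site, was at -0.18, -0.23 and -0.28. Ndufs8, with 4 probe sets, was at -0.09, -0.21 and -0.10, and its probe sets ran from -0.47 to 0.06 at 24 h. Ndufv3, a small accessory protein of the matrix arm, had ratios of 0.913 on the VAD array and 0.820, 0.819 and 0.916 at 4, 8 and 24 h. It was at -0.15, -0.16 and 0.00, with its 2 probe sets at -0.27 and 0.28 at 24 h. Ndufab1, the mitochondrial acyl carrier protein, was at -0.34, -0.24 and -0.55.

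Some Nduf symbols do not belong to subunits of complex I. Ndufa4, whose protein has been found with complex IV, was at -0.23, -0.25 and -0.23. Its paralogue Ndufa4l2, which low oxygen induces in other cell types, was at 0.07, 0.00 and -0.12 over 5 probe sets. Ndufaf3, an assembly factor, was at -0.12, -0.30 and -0.40. Of the 27 genes, 24, 25 and 25 were below 0 at 4, 8 and 24 h as deposited, where 61.1%, 61.5% and 59.9% of all genes were.

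Complex II was read by 2 genes and neither was far from the VAD array. Sdha, the flavoprotein that oxidises succinate and a member of the citric acid cycle as well, had ratios of 1.03 on the VAD array and 0.954, 0.935 and 0.926 at 4, 8 and 24 h. Its changes were -0.11, -0.14 and -0.15, close to the median of all genes. Sdhaf2, an assembly factor needed to attach the flavin to Sdha, had ratios of 1.065, 1.246, 1.100 and 1.372 in the same order of arrays. Its changes were 0.23, 0.05 and 0.37. Without Sdhaf2 the complex rests on Sdha alone.

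In complex III, Uqcr11, a small subunit, had ratios of 1.13 on the VAD array and 0.773, 0.657 and 0.636 at 4, 8 and 24 h. It was the lowest gene of the complex, with changes of -0.55, -0.78 and -0.83, and its 2 probe sets were at -0.89 and -0.78 at 24 h. Uqcrfs1, the Rieske iron-sulphur protein that takes electrons from ubiquinol, had ratios of 1.02 on the VAD array and 0.926, 0.742 and 0.694 at 4, 8 and 24 h, and changes of -0.14, -0.46 and -0.56. Uqcrc2, a core protein with no redox centre, had ratios of 1.03, 0.857, 0.840 and 0.963 in the same order, and changes of -0.27, -0.30 and -0.10. Its value at 24 h was thus close to that of the VAD array. Cyc1, the cytochrome c1 of the same complex, is not taken by the symbol rule and was at -0.49, -0.31 and -0.40.

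In complex IV, cytochrome c oxidase, 12, 11 and 11 of 13 genes were below 0 at 4, 8 and 24 h as deposited. Of all genes, 61.1%, 61.5% and 59.9% were below 0 at these times. The 11 genes of structural subunits had medians of -0.39, -0.51 and -0.58. Cox8b, the heart and muscle form of subunit VIII in rodents, had ratios of 0.921 on the VAD array and 0.702, 0.648 and 0.462 at 4, 8 and 24 h. Its 24 h ratio was the lowest of all 55 members. The change at 24 h was -0.995, or 1.99-fold lower, which is just under the 2-fold threshold. Its 2 probe sets were at -1.41 and -0.58. Cox5a, a subunit on the matrix side, had ratios of 0.857, 0.605, 0.523 and 0.488 in the same order. It was low already on the VAD array and was at -0.50, -0.71 and -0.81.

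Paired isoforms of complex IV subunits could be set side by side. Cox4i1, the general form of subunit IV, had ratios of 1.08 on the VAD array and 0.797, 0.682 and 0.713 at 4, 8 and 24 h, with changes of -0.44, -0.67 and -0.60. Cox4i2, known as the lung form, had ratios of 1.06, 0.877, 0.786 and 0.701 in the same order, with changes of -0.27, -0.43 and -0.60. The forms thus had like values at 24 h. Cox8a, the general form of subunit VIII, had ratios of 1.04 on the VAD array and 0.863, 0.862 and 0.841 at 4, 8 and 24 h. It was at -0.28, -0.28 and -0.31, with its 4 probe sets between -0.42 and -0.22 at 24 h. Cox6a1, the general form of subunit VIa, had ratios of 1.101 on the VAD array and 0.855, 0.784 and 0.751 at 4, 8 and 24 h, with changes of -0.36, -0.49 and -0.55. Cox6a2, its heart and muscle form, had ratios of 0.848 on the VAD array and 0.923, 1.02 and 1.02 at 4, 8 and 24 h. Its changes were 0.12, 0.27 and 0.27, and at 24 h its 3 probe sets were at 0.53, 0.20 and 0.08. At 24 h Cox6a2 lay 0.83 log2 units above the members' median, or 2.67 probe-set units. The heart forms of the 2 subunits thus had opposite signs at 24 h as deposited, at 0.27 for Cox6a2 and -0.995 for Cox8b.

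The remaining genes of complex IV lay close together at 24 h. Cox7b, Cox6b1, Cox5b and Cox6c were at -0.58, -0.58, -0.56 and -0.45. Cox7a2l, a factor that joins complexes III and IV, was at -0.22, -0.16 and -0.24. Cox6c-ps1, a pseudogene of Cox6c, had ratios of 0.995 on the VAD array and 0.864, 1.17 and 1.32 at 4, 8 and 24 h, with changes of -0.20, 0.23 and 0.41. Its signal is uncertain, since a probe set for it may also bind transcripts of near copies such as Cox6c.

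In complex V all 10 genes were below 0 at 4, 8 and 24 h as deposited, where 61.1%, 61.5% and 59.9% of all genes were. Atp5f1e, the epsilon subunit of the catalytic head, had ratios of 1.21 on the VAD array and 0.830, 0.625 and 0.656 at 4, 8 and 24 h. It was the lowest gene of the complex, with changes of -0.55, -0.96 and -0.89. Atp5pb, subunit b of the peripheral stalk, had ratios of 0.853, 0.731, 0.635 and 0.543 in the same order and was at -0.22, -0.43 and -0.65. Atp5f1a, which had ratios of 0.92 on the VAD array and 0.825, 0.853 and 0.759 at 4, 8 and 24 h, was the highest gene of the complex at 24 h. It and Atp5f1b, the alpha and beta subunits that form the catalytic sites, were at -0.28 and -0.46 at 24 h, and the gamma and delta subunits, Atp5f1c and Atp5f1d, were at -0.58 and -0.47. The 4 stalk genes Atp5pb, Atp5pd, Atp5pf and Atp5po were at -0.65, -0.63, -0.49 and -0.45. Atp5if1, the inhibitor that stops the enzyme from running backwards, had ratios of 0.937, 0.877, 0.674 and 0.697 on the VAD, 4, 8 and 24 h arrays and was at -0.10, -0.48 and -0.43.

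**Figure D3:**
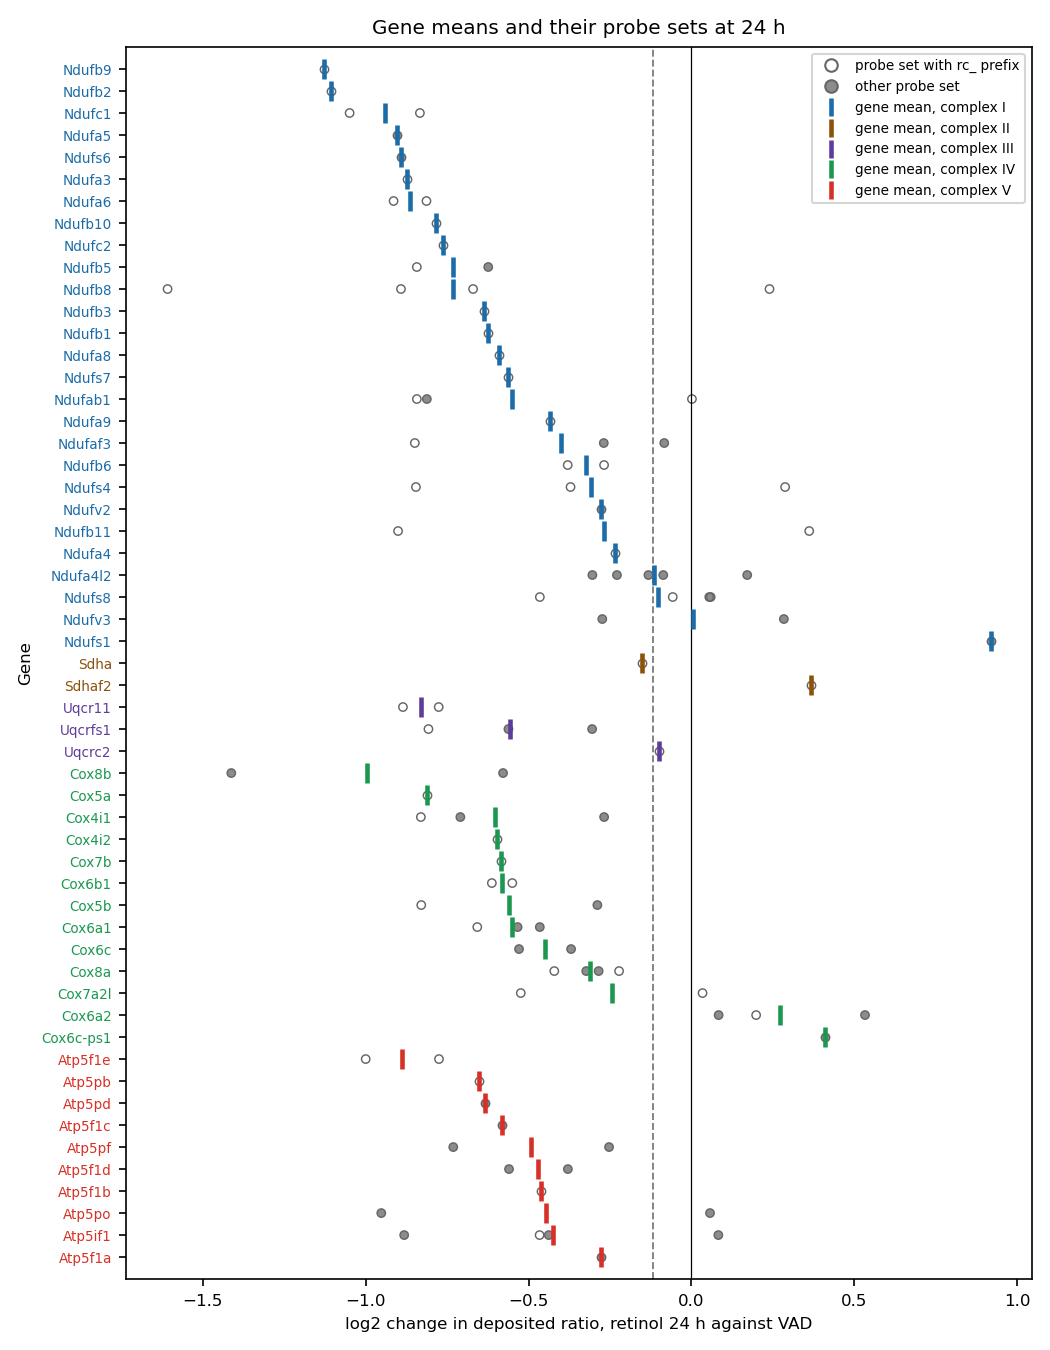
The log2 change at 24 h against VAD of every gene (coloured bar, by complex) and of each of its probe sets (open circles, probe sets whose identifier has the prefix rc_; grey circles, other probe sets); the dashed line is the median of all 4736 genes. Ndufb9 was lowest at -1.13 and Ndufs1 highest at 0.92 as deposited, and the probe sets of Ndufb8 ran from -1.61 to 0.24.

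At 24 h, 5 of 55 members were above 0 as deposited: Ndufs1 (0.92), Cox6c-ps1 (0.41), Sdhaf2 (0.37), Cox6a2 (0.27) and Ndufv3 (0.00). More than 2 probe-set units from the members' median were Ndufa4l2, Ndufb11 and Ndufs1 at 4 h, Cox6a2, Ndufa4l2 and Ndufs1 at 8 h, and Cox6a2 and Ndufs1 at 24 h. In these units, which use the SD over all genes, all of them lay above the median of the set and none below it. A distance in these units grows with the number of probe sets. Ndufa4l2 had 5, all with the suffix f or i in their identifiers. The SD over the members themselves was smaller, at 0.32, 0.36 and 0.38 for 4, 8 and 24 h. With it more members can pass, so the list and the absence of members below depend on the SD used. Nearest to the limit below the set was Ndufb8 at 8 h, at -0.40 from the members' median over 4 probe sets. The limit of 2 units was chosen after the values had been seen.

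Probe sets of a single gene disagreed in several members, and for 4 of them by more than 1 log2 unit at 24 h. Ndufb8, a membrane-arm accessory subunit of complex I, had 4 probe sets at 0.24, -0.67, -0.89 and -1.61. Its mean ratios were 0.989 on the VAD array and 0.671, 0.545 and 0.595 at 4, 8 and 24 h, with changes of -0.56, -0.86 and -0.73. Ndufs4, of the matrix arm, had 3 at -0.85, -0.37 and 0.29. Its mean ratios were 1.09 on the VAD array and 0.854, 0.873 and 0.881 at 4, 8 and 24 h, with changes of -0.36, -0.32 and -0.31. In both genes the probe sets lay on either side of 0. Ndufb11 had mean ratios of 0.921, 1.22, 0.838 and 0.764 on the VAD, 4, 8 and 24 h arrays and changes of 0.40, -0.14 and -0.27. It had 2 probe sets at -0.90 and 0.36, and at 4 h they were at -0.42 and 1.22. The second of these read 0.864 on the VAD array and 2.01 at 4 h, where the first read 0.982 and 0.735. Atp5po, which joins the stalk to the catalytic head and was at -0.44, -0.59 and -0.45, had 2 at -0.95 and 0.06. The lower one had ratios of 1.393 on the VAD array and 0.771, 0.650 and 0.720 at 4, 8 and 24 h, and the other 1.093, 1.066, 1.036 and 1.137. In Ndufb11 and in Atp5po the 2 probe sets were made from the same database sequence, so the gene's mean hides 2 unlike readings.

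In both of these pairs the lower reading came from the probe set whose identifier carries the array maker's suffix g. There were 13 pairs of this kind among the members, each of a g probe set and a plain one from the same sequence. The median of the g probe sets was -0.44, -0.55 and -0.73 at 4, 8 and 24 h, and that of their plain partners -0.08, -0.17 and -0.22. The g probe set was the lower of the pair in 12, 12 and 11 of 13 pairs. Over all genes it was the lower in 72.1%, 70.9% and 69.5% of 763 pairs, with medians of -0.24, -0.29 and -0.31 for g probe sets and -0.05, -0.07 and -0.06 for plain ones. This comparison was added after the values had been seen.

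The prefix rc_ of an identifier marks probe sets whose probes were made to the reverse complement of a database sequence, mostly of expressed sequence tags. Of the members' probe sets 56.4% carried it, against 35.0% of all 7006. Members lay below the other genes within both kinds. Among rc_ probe sets the median change was -0.42, -0.51 and -0.62 for the 57 of members and -0.18, -0.25 and -0.27 for the 2392 of other genes. Among the rest it was -0.21, -0.32 and -0.30 for the 44 of members and -0.04, -0.04 and -0.02 for the 4513 of other genes. In the 11 members that had both kinds, the rc_ mean was the lower in 8, 7 and 10 genes at 4, 8 and 24 h. Over the 476 genes with both kinds it was the lower in 276, 281 and 288. The kind of probe set therefore moved with the change, and its part in the size of the members' shift was not tested beyond these values.

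**Figure D4:**
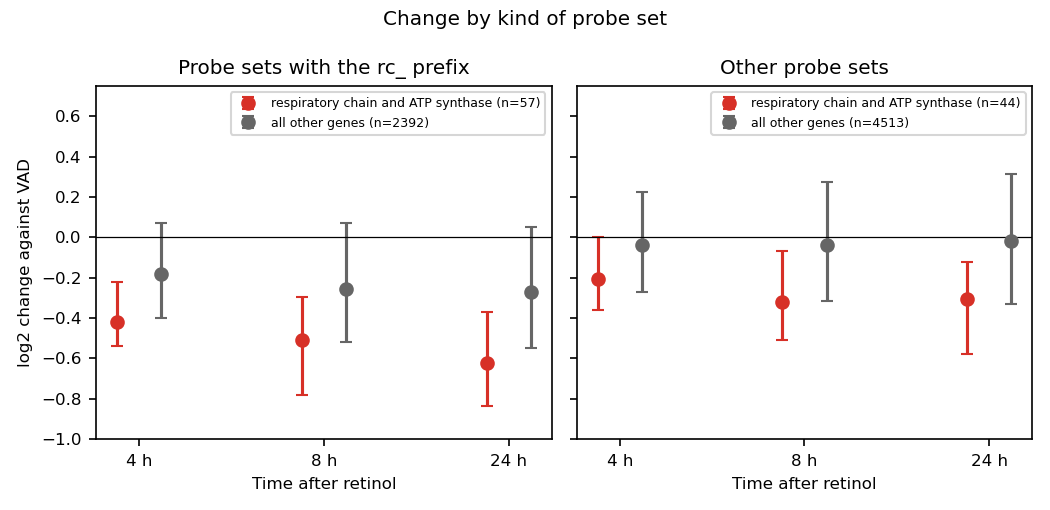
Median log2 change against VAD (points) and middle 50 percent of probe sets (bars) at 4, 8 and 24 h, for probe sets with the prefix rc_ (left) and all others (right), members in red and other genes in grey. At 24 h as deposited the medians were -0.62 for members and -0.27 for other genes on the left, and -0.30 and -0.02 on the right; scaling on the spike-ins moves all points of a time up by the same amount.

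Other mitochondrial genes were set beside the members. Of 19 genes of the citric acid cycle and pyruvate dehydrogenase, 12 were measured, and their median change was -0.18, -0.14 and -0.19 at 4, 8 and 24 h. They ran at 24 h from -0.86 for Pc, pyruvate carboxylase, to 0.67 for Cs, citrate synthase. Of 21 carriers, porins and kinases of energy transfer, 14 were measured, with medians of -0.07, -0.06 and -0.07 and a range at 24 h from -0.58 for Slc25a4, an ADP/ATP carrier, to 0.89 for Vdac1, the main porin. Of 22 other genes of electron entry and of the chain, 9 were measured, with medians of -0.11, -0.11 and -0.19. They ran at 24 h from -0.41 for Gpd2, the mitochondrial glycerol phosphate dehydrogenase, to 0.74 for Dhodh, which links pyrimidine synthesis to ubiquinone. The 9 also include Atp6ap1, at -0.14 at 24 h, which belongs to the vacuolar proton pump and not to mitochondria. No gene of these 3 lists was 2-fold lower or higher at 4, 8 or 24 h. Few genes on the array were: 1.25%, 1.88% and 2.64% of all genes were lower and 1.41%, 2.83% and 3.27% higher. Of 11 regulators of respiratory genes only Esrra, an orphan nuclear receptor, was measured, with changes of -0.20, -0.48 and -0.44.

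Lists of ribosomal proteins were closer to the members than the lists above. The 20 measured genes of mitochondrial import and of the mitochondrial ribosome had medians of -0.33, -0.37 and -0.40. As deposited, 16, 17 and 20 of them were below 0, beside 61.1%, 61.5% and 59.9% of all genes. This list of 20 ran at 24 h from -0.96 for Tomm6, of the outer membrane import pore, to -0.06 for Timm44, which helps pull proteins into the matrix. The 45 genes taken by the prefixes of cytosolic ribosomal proteins, which also take the kinase gene Rps6kb1 and pseudogenes, had medians of -0.39, -0.61 and -0.56. Of them 41, 40 and 42 were below 0 as deposited, where 61.1%, 61.5% and 59.9% of all genes were. At least 2-fold lower were 2, 3 and 2 of them, against 1.25%, 1.88% and 2.64% of all genes, and 1 of them, Rplp1l3, was at least 2-fold higher at each time. Their 24 h values ran from -1.08 for Rps4x-ps9 to 1.75 for Rplp1l3. Both lists thus lay below the median of all genes. Of 18 genes of glycolysis, 12 were measured, with medians of -0.18, -0.49 and -0.56, from -0.95 for Pgk1, phosphoglycerate kinase, to 0.93 for Aldoa, an aldolase, at 24 h. As deposited, 7, 9 and 8 of these 12 were below 0, beside 61.1%, 61.5% and 59.9% of all genes. Their mean at 24 h was -0.26.

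Markers of the cell types of the testis also differed between the arrays. Ratios hold no level, so they do not show which of these cells the tissue held. In whole tissue, fewer cells of a type and less RNA per cell cannot be told apart. The 10 measured spermatid markers had a median change of 0.72 at 4 h, -0.36 at 8 h and -0.53 at 24 h, and ran from -1.07 (Odf2) to 0.01 (Prm2) at 24 h. The 8 spermatocyte markers had medians of 0.61, -0.18 and -0.22, with Ldhc lowest at -0.70 and Pdha2 highest at 0.68 at 24 h. The 5 spermatogonial markers had medians of 0.23, 0.06 and 0.29, from -0.45 (Ret) to 1.01 (Kit). The 11 Sertoli cell markers had medians of 0.09, 0.11 and -0.07, from -0.50 (Inha) to 1.09 (Kitlg). The 7 Leydig cell markers had medians of 0.19, 0.12 and -0.59, from -1.95 (Cyp11a1) to 1.63 (Nr5a1). The 5 peritubular markers had medians of -0.25, -0.39 and -0.43 (Cnn1 -0.66, Acta2 0.38), the 5 leukocyte markers -0.08, -0.03 and 0.24 (Cd74 -0.39, Cd14 0.50), and the 4 endothelial markers -0.25, 0.06 and 0.07 (Kdr -1.35, Pecam1 0.65). The 2 blood markers had medians of -0.38, -0.06 and -0.12 (Alas2 -0.71, Hbb 0.47). At 4 h the medians of the spermatid and spermatocyte lists were above 0 and that of the members below it as deposited, and at 8 and 24 h each of these medians was below 0. The part of cell composition in the members' changes was not tested.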

How the data were processed

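Total RNA of whole rat testis was hybridised to Affymetrix rat arrays, 1 array per group. The authors deposited a linear ratio for each probe set. GCOS and MAS5 are named in the processing notes of the submitters, and no version is given; the step from signals to ratios and their denominator are not stated in the sources used here. Of 8799 probe sets, 59 were controls, 7006 carried 1 gene symbol, 308 several and 1426 were not listed in the platform annotation. Symbols were updated through Entrez IDs, 6985 of which were found in RefSeq of assembly GRCr8; no member symbol changed. Another 7 probe sets carried a member symbol beside others and were left out. Ratios were taken to log2 with no pseudocount, averaged per gene and subtracted between arrays, in Python 3.11.15 with pandas 2.3.3, numpy 2.4.6 and matplotlib 3.10.9. The steps were tested on simulated data with planted changes of 2 log2 units up or down. These are larger than the change of any member, so recovery of changes of the members' size was not examined. No test between groups was possible. Thresholds were 2-fold, with 1.5-fold as an alternative. The precision is limited by the single array per group; signal levels and detection are unknown.

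All members could be named; given with ratios and changes were the 2 lowest and 2 highest at 24 h of each complex, members past 2-fold or above 0 at 24 h, isoform pairs and members with discordant probe sets. Other members with values were chosen after these were seen. Of each other list the lowest and highest at 24 h were named, and Cyc1, Rps6kb1 and Atp6ap1 after their values were seen. Members and lists were chosen with earlier results of these data known.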

Additional observations from a re-analysis of the deposited data

How the results depend on the processing

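The results were recomputed under 15 settings, giving 552 alternative values of 41 results. Of the medians, counts and shares, 417 kept their sign and lay within 1.5 times of the reported value, 48 differed by more and 21 changed sign. Counts that stayed at 0 are among the 417, as are values with platform symbols, which could not differ since no member symbol changed. Of the values of Ndufb2 and Ndufb9, 59 kept their sign and side of the 2-fold threshold, 6 of them at sizes more than 1.5 times apart, and 7 lost the threshold. Each of these genes has a single plain rc_ probe set. Settings that only choose among probe sets or members therefore could not change their values, and such values are among the 59. The settings by kind of probe set (rc_) and with probe sets of several symbols were chosen after seeing the data. Where no cause is named, the cause was not tested.

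Scaling on the spike-ins adds 1 amount to every gene of a comparison. At 4, 8 and 24 h against VAD it was 0.549, 0.501 and 0.621 log2 units. These amounts come from the median spike-in value of each array, and so differ from the median of the spike-in changes given above. The members' medians at 4, 8 and 24 h became 0.21, 0.0404 and 0.0633 and that of 24 h against 8 h 0.0546. Complex I became 0.17, 0.12 and 0.0309, complex II 0.61, 0.46 and 0.73, complex III 0.28, 0.0404 and 0.0633, complex IV 0.18, 0.0114 and 0.0623, and complex V 0.25, 0.0023 and 0.14. Members below 0 became 16.4%, 43.6% and 34.5%, where 8.02%, 17.4% and 11.9% of all genes were. At 24 h against 8 h 23.6% of members were below 0, a smaller share than the 28.2% of all genes. At 4, 8 and 24 h, 1, 1 and 2 members were 2-fold higher, and 0 were 2-fold lower at 24 h. Ndufb2 was at -0.48 and Ndufb9 at -0.51 at 24 h. Centred on the median of all genes, complex II was 0.16, 0.0695 and 0.23 and complex III -0.17 at 4 h; 1 member was 2-fold higher at 8 h and at 24 h, and 1 lower at 24 h, with Ndufb2 at -0.99. Against a ratio of 1, the members were at -0.23 and complex I at -0.22 at 4 h, complex II at 0.12, 0.0203 and 0.17, and at 24 h Ndufb2 at -0.73 and Ndufb9 at -0.92.

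With the probe set of highest mean ratio, complex III was -0.30 at 8 h and -0.30 at 24 h, 1 member was 2-fold higher at 4 h and 1 lower at 8 h. Without suffixed probe sets, complex V was -0.20 and 1 member 2-fold higher at 4 h. In genes with 2 or more probe sets, complex I was -0.22 at 4 h and -0.36 at 24 h, the members -0.042 at 24 h against 8 h, and 0 members were 2-fold lower at 24 h. With a VAD ratio within 10% of 1, 0 were 2-fold lower, complex III was -0.33 at 24 h and the members -0.0376 at 24 h against 8 h. With a pseudocount of 0.1, 0 were 2-fold lower at 24 h (Ndufb2 -0.99, Ndufb9 -0.9965). Without assembly factors and the pseudogene, complex II, then Sdha alone, was -0.11, -0.14 and -0.15. At 1.5-fold, 4, 16 and 22 members were lower and 1, 1 and 1 higher at 4, 8 and 24 h. With rc_ probe sets, complex III was -0.78 at 8 h. Without them, complex I was -0.0683, -0.19 and -0.23, complex III -0.0294 at 4 h and -0.29 at 8 h, and 0 members were 2-fold lower at 24 h.

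The limit to genes of short proteins, and the comparison with protein length, were not run, since no table of proteins was used here. No paired analysis was possible because each group has 1 array. No replicate was left out, since each group is 1 array.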
